A study of Arabidopsis thaliana with 6 samples.

Results

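Seedlings of the Arabidopsis thaliana mutant nbp35-3 were set against wild type on 4 arrays, 2 of each genotype, out of 6 arrays in the series. The arrays were chosen by their titles, nbp35-3/- and Wild type, each with a replicate number 1 or 2. All 22746 probe sets that are not Affymetrix controls were compared, out of 22810 deposited. The other 2 arrays, of the mutant nar1-4/-, entered the statistical fit and serve as a further reading of each number.

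Both groups were whole seedlings in the Col-0 background, harvested 2 weeks after imbibition from MS plates kept at 22 °C with 16 h light and 8 h dark. The mutants carry alleles of NBP35 and NAR1, and the labels name no transgene or chemical. The source name of the nbp35 samples reads nbp35-4/- where their title and genotype read nbp35-3/-, and the title was followed. What the sign "/-" stands for is not said in the labels. Per the series' design text the arrays of a genotype are biological replicates, and nothing says how many plants were pooled. Each p-value therefore rests on the spread between these few samples. In the main fit that is the spread left once the replicate number is allowed for.

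NBP35 is a scaffold on which iron-sulphur (Fe-S) clusters are built in the cytosol, and NAR1 acts after it in handing clusters to client proteins. Clients include DNA polymerases and helicases, glycosylases that remove methylated cytosine, cytosolic aconitase and aldehyde oxidases. In Arabidopsis, complete loss of NBP35 is known to arrest embryos. Levels here are transcript levels in whole seedlings, where fewer cells of a type and less RNA per cell cannot be told apart. The allele itself was not followed, because 0 probe sets named NBP35 and 0 named NAR1.

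The arrays separated by number before they separated by genotype. Arrays of the same number and different genotype had correlations of 0.9873 to 0.9943 over the probe sets, against 0.9679 to 0.9698 for the pair of arrays of 1 genotype. The array of nbp35-3 replicate 2 stood at 29.72 on the second principal component (11.5% of the variance). The other 5 lay between -20.47, which was wild-type replicate 2, and 9.88. Hybridisation spikes, 18 control probe sets added in fixed amounts, averaged 9.21 and 10.82 in nbp35-3 replicates 1 and 2 and 9.14 and 10.64 in wild-type replicates 1 and 2. Organ markers matched the label of whole seedlings: the leaf protein RCA stood at 13.41 and 13.55 in nbp35-3 and 13.37 and 13.48 in wild type, and the root glucosidase PYK10 at 11.80 and 12.01 in nbp35-3 and 12.01 and 12.14 in wild type.

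A difference below is nbp35-3 minus wild type on the log2 scale, taken within number 1 or within number 2, so that 1 unit is 2-fold. Since nbp35-3 replicate 2 and wild-type replicate 2 enter only the difference of number 2, the values of number 1 are the values without either. No probe set passed in the limma fit blocked on replicate number, which used all 6 arrays and Benjamini-Hochberg adjustment at 0.05 (0 of 22746, 0%). The adjusted p reached 0.306 at its smallest. At an unadjusted p under 0.05 there were 1076 probe sets (4.73%), of which 496 (2.18%) were higher and 580 (2.55%) lower in nbp35-3. Without the block, limma also called 0, with 139 probe sets (0.611%) at an unadjusted p under 0.05. What follows therefore sorts the differences by whether they came back in the second number, as a description. Where a list below is given with 0 passed, that holds for every probe set and says nothing particular about the list.

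Far more probe sets differed in number 2 than in number 1. Within number 1, 122 probe sets (0.536%) were at least 2-fold apart, 45 higher (0.198%) and 77 lower (0.339%) in nbp35-3. Within number 2 there were 436 (1.92%), 221 higher (0.972%) and 215 lower (0.945%). The differences had an SD of 0.25 within number 1 and 0.368 within number 2.

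Little carried over from one number to the other. Of the 122 probe sets of number 1, 57 (46.7%) had the same sign in number 2 and 62 differed there by under 0.5. Of the 436 probe sets of number 2, 228 (52.3%) had the same sign in number 1 and 331 differed there by under 0.5. Over all probe sets the sign was shared by 50.6%, so the large differences kept their sign about as often as any probe set did. At least 2-fold in both numbers and in the same direction were 9 probe sets (0.0396%), 6 higher (0.0264%) and 3 lower (0.0132%), while 15 (0.0659%) were at least 2-fold in opposite directions.

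**Figure D1:**
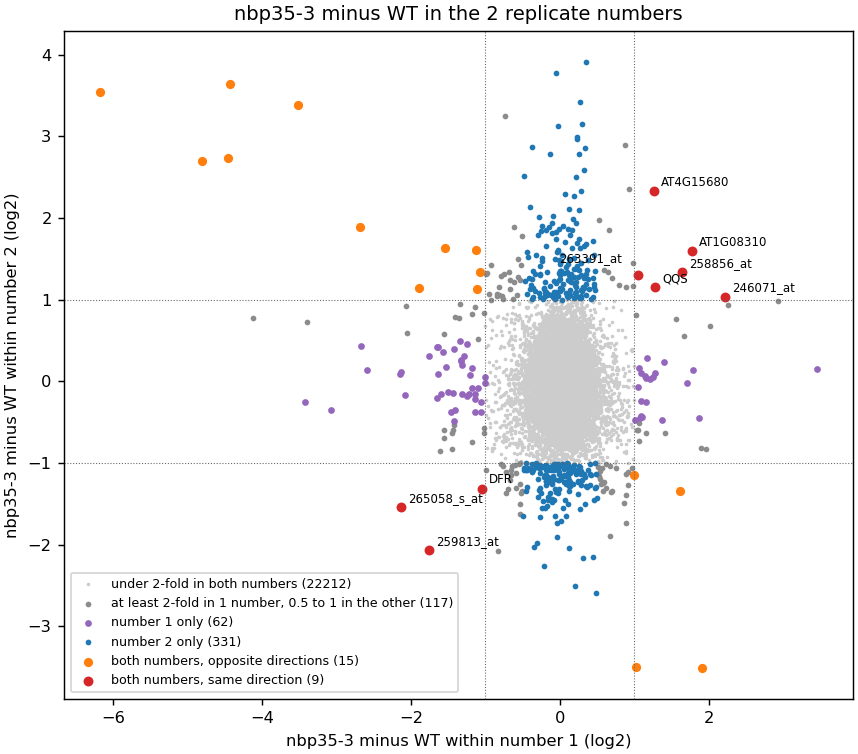
Difference of nbp35-3 minus WT (log2) within number 1 on the horizontal axis and within number 2 on the vertical axis, 1 point per probe set, with dotted lines at 2-fold. The 9 probe sets that repeated are named, the 15 with opposite directions lie in the other corners, and the cloud is taller than it is wide.

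The 9 repeated probe sets were chosen by these differences, so their sizes are a description. In each of the 9, both nbp35-3 arrays lay on the same side of both wild-type arrays, a property that the choice nearly fixes. Among all probe sets it was shared by 2515 probe sets that were higher (11.1%) and 1959 that were lower (8.61%). Only 4 of the 9 named 1 gene, and they are AT1G08310, QQS, AT4G15680 and DFR.

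AT1G08310 had the smallest p of all probe sets. It stood at 6.48 and 6.18 in nbp35-3, against 4.70 and 4.59 in wild type, with nar1-4 at 4.87 and 4.66. The groups were well apart and each pair of arrays lay close together. The difference was 1.69 ± 0.12 (SE), or 3.22-fold, with an adjusted p of 0.306 in limma. Its measured neighbours in the gene order of TAIR10.1 did not share the difference: AT1G08315 differed by 0.10 and 0.89 within numbers 1 and 2, AT1G08280 by 0.07 and -0.67 and AT1G08340 by 0.72 and -0.49.

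QQS is a gene found only in Arabidopsis thaliana that takes part in partitioning carbon into starch, and natural lines are known to carry it in differently methylated states. QQS stood at 6.28 and 6.36 in nbp35-3, against 4.99 and 5.21 in wild type. The 4 values formed 2 tight pairs, with nar1-4 at 5.11 and 4.66 beside wild type. The difference was 1.22 ± 0.19 (SE), or 2.33-fold (limma adjusted p = 0.930). AT3G30730, the only measured gene within 3 loci of QQS, differed by 0.09 in each number.

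Other genes of starch metabolism did not move with QQS. Of 25 written for the list, 4 were measured, QQS among them, and 0 passed in either direction, as for all probe sets. APL3, a large subunit of ADP-glucose pyrophosphorylase, which makes the glucose donor for starch, differed by -0.63 and -0.47 within numbers 1 and 2. The branching enzyme SBE2.2 differed by -0.03 and 0.02, and the disproportionating enzyme DPE1 by -0.05 and -0.26.

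DFR, the reductase that commits flavonoids to anthocyanin, was the named gene with a repeated lower level. It stood at 5.32 and 5.03 in nbp35-3, against 6.36 and 6.34 in wild type. The groups did not overlap, yet nar1-4 stood at 3.79 and 6.55, wider apart than the other genotypes together. That spread enters the fit, where the DFR difference was -1.18 ± 0.72 (SE, limma unadjusted p = 0.156). The other 2 measured genes of the flavonoid list (3 of 19) were lower in both numbers as well, the glycosyltransferase UF3GT by -0.46 and -0.27 and AT4G14090 by -0.37 and -0.23, and 0 of the 3 passed.

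The 5 repeated probe sets that name no gene here were 258856_at, 246071_at, 263391_at, 259813_at and 265058_s_at. Probe set 259813_at stood at 6.13 and 4.83 in nbp35-3, against 7.89 and 6.90 in wild type, with nar1-4 minus wild type at -0.84 and -1.78. Probe set 265058_s_at, whose suffix marks a set that can bind several transcripts, stood at 6.19 and 7.21 in nbp35-3, against 8.32 and 8.75 in wild type. Higher in nbp35-3 were 246071_at (differences of 2.22 and 1.04), 258856_at (1.64 and 1.34) and 263391_at, at 4.78 and 4.65 in nbp35-3, against 3.72 and 3.34 in wild type. In 265058_s_at too nar1-4 lay below wild type, with differences of -2.29 and -0.61.

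The 2-fold limit passed through a continuous range. Just inside it, by the smaller of their 2 differences, were 246071_at and DFR at 1.04 and 263391_at at 1.06. Just outside were 258158_at and 254283_s_at at 0.99, and AT5G20790 and AT4G37220 at 0.98. AT5G20790, which was written into a phosphate starvation list and was the only one of its 18 genes measured, stood at 6.49 and 4.96 in nbp35-3, against 3.56 and 3.97 in wild type.

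**Figure D2:**
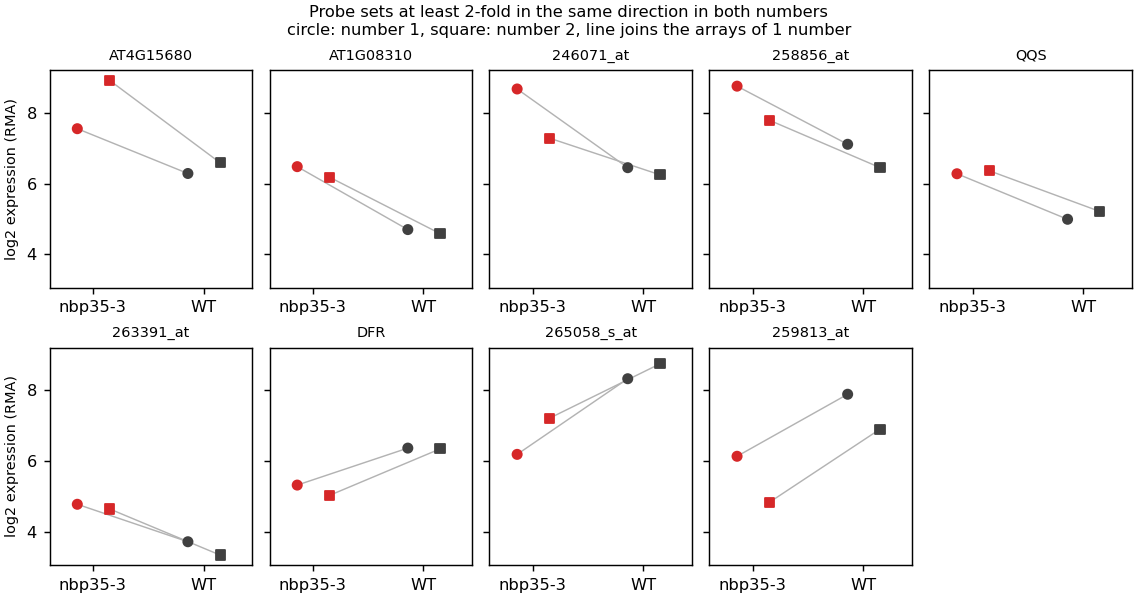
Level (log2, RMA) of the 9 repeated probe sets on the 2 nbp35-3 arrays (left, red) and the 2 WT arrays (right, dark), with circles for number 1 and squares for number 2. In each panel both lines slope the same way, and AT4G15680 and 246071_at show the most unequal slopes.

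The fourth named gene, AT4G15680, belongs to a run of neighbouring loci, AT4G15660 to AT4G15700, that encode glutaredoxins of the plant-specific CC type. Glutaredoxins are small proteins that reduce disulphides with glutathione, and CC-type members act largely through TGA transcription factors. The gene table pairs only ROXY1, ROXY2 and GRX480 of the list with a glutaredoxin name. The other members were entered by locus from background knowledge.

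All 4 measured loci of the run were higher in nbp35-3 in both numbers. AT4G15680 stood at 7.55 and 8.92 in nbp35-3, against 6.29 and 6.59 in wild type (1.80 ± 0.26, SE, 3.47-fold). AT4G15690 stood at 7.29 and 7.67 in nbp35-3, against 6.39 and 6.51 in wild type. For both loci the 2 nbp35-3 arrays lay above the 2 wild-type arrays.

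The outer loci of the run had the same order of arrays. AT4G15660 stood at 5.75 and 6.49 in nbp35-3, against 5.05 and 5.23 in wild type. AT4G15700 differed by 0.65 and 1.34 within numbers 1 and 2, from wild-type levels of 5.75 and 5.19. The 4 loci had unadjusted limma p of 0.000539 to 0.00437 and each an adjusted p of 0.930.

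The run stood apart from its surroundings in the gene order. The flanking genes AT4G15650 and AT4G15710 differed by -0.14 and -0.11 and by -0.08 and 0.30 within numbers 1 and 2. AT4G15670 was not measured by a probe set naming 1 gene. Copies of neighbouring glutaredoxin genes are alike in sequence, so probes may bind more than 1 of them, and the 4 loci may not be separate readings.

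The other CC-type members showed no common direction. Of 21 written, 17 were measured and 0 passed in either direction. Outside the run, 5 of 13 were higher in both numbers, 5 lower in both and 3 of opposite sign. The run differed by 0.65 to 1.27 within number 1 and 1.16 to 2.33 within number 2, where the other 13 had medians of 0.01 and -0.16. AT2G30540 (0.70 and 0.55) and AT3G62950 (0.48 and 0.38) were higher in both, and AT2G47880 differed by 0.89 and -1.40. Within the run nar1-4 also stood above wild type, in AT4G15680 by 0.62 and 1.34 and in AT4G15700 by 0.43 and 1.25. These differences use the same wild-type arrays.

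**Figure D3:**
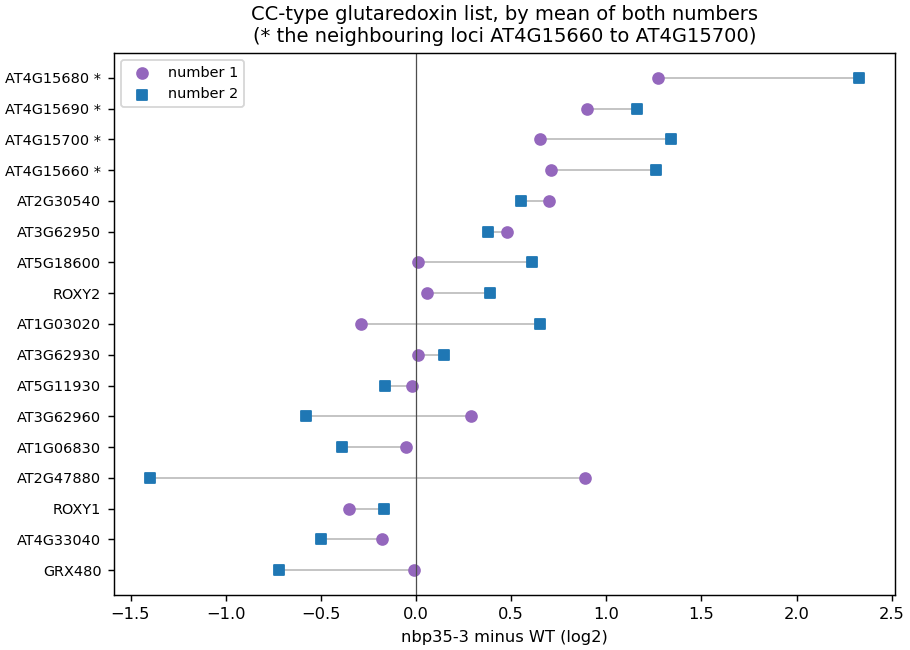
Difference of nbp35-3 minus WT (log2) within number 1 (circles) and number 2 (squares) for the 17 measured CC-type glutaredoxin loci, ordered by their mean. The 4 starred loci of the run take the top 4 places, while the others lie on both sides of 0.

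The lower genes with the smallest p are described next. The blocked fit that ranks them favours probe sets whose differences are alike in both numbers, so that likeness is part of the choice. XTH20, an enzyme that cuts and rejoins xyloglucan in the cell wall, stood at 4.23 and 4.68 in nbp35-3, against 5.15 and 5.49 in wild type (-0.86 ± 0.12, SE). Its groups did not overlap. AT2G43590, of the chitinase family, stood at 7.43 and 7.35 in nbp35-3, against 8.20 and 8.08 in wild type (-0.75 ± 0.13). Neither passed, with an adjusted p of 0.930 for each in limma. In nar1-4 too, XTH20 (-0.47 and -0.35) and AT2G43590 (-1.04 and -1.29) lay below the same wild-type arrays.

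In several of the others the arrays of the 2 numbers were further apart than the genotypes were. AT3G56080 stood at 2.92 and 5.03 in nbp35-3, against 3.64 and 5.71 in wild type, a difference of -0.72 and -0.68. The groups overlapped there, and only the pairing by number shows the gap. AT5G45670 (-0.73 and -0.93), AT4G17470 (-0.73 and -1.11), AT2G40435 (-0.65 and -1.15), AT2G34810 (-0.66 and -0.61) and AT2G44300 (-0.58 and -0.80) were likewise lower in each number. The difference of nar1-4 minus wild type was -0.60 and -0.54 in AT3G56080, -1.23 and -1.10 in AT4G17470 and -0.46 and -0.55 in AT2G40435. It was -0.42 and -0.47 in AT2G44300, -0.08 and -0.07 in AT2G34810 and 0.55 and 0.12 in AT5G45670. Among the 8 higher genes with the smallest p, those not yet described were AT2G16980 (0.88 and 0.54) and AT1G11340 (0.67 and 0.69).

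Seen in number 1 only were 62 probe sets (0.273%), at least 2-fold there and under 0.5 in number 2, of which 21 were higher (0.0923%) and 41 lower (0.18%). The one furthest above wild type was OCT1, a transporter of organic cations and carnitine. It stood at 6.37 in nbp35-3 replicate 1, while nbp35-3 replicate 2 read 3.23, the wild-type arrays 2.91 and 3.08 and the nar1-4 arrays 2.99 and 3.01. A single array out of 6 carried this difference.

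AT4G22490 was the mirror image, at 5.79 in nbp35-3 replicate 1 while the other 5 arrays read 9.22 to 9.85. AT1G52820 and its near neighbour AT1G52800 were higher by 1.70 and 1.17 within number 1, with differences of -0.02 and 0.28 within number 2. AT1G23140 differed by 1.25 and 0.05.

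Of the 17 cold and dehydration genes written 4 were measured and 0 passed. COR15A encodes a protein that protects chloroplast membranes during freezing, and it stood at 6.33 and 7.78 in nbp35-3, against 9.41 and 8.13 in wild type. The wild-type array of number 1 was the highest of the 6, and nar1-4 stood at 7.22 and 7.51. Its close relative COR15B stood at 5.71 and 6.69 in nbp35-3, against 7.15 and 7.32 in wild type (-1.44 and -0.63). The dehydrins COR47 (0.01 and 0.13) and LTI30 (-0.25 and -0.36) differed less.

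SWEET4, a sugar transporter, stood at 4.08 and 5.01 in nbp35-3, against 6.22 and 4.93 in wild type. AT4G33720 stood at 3.62 and 5.82 in nbp35-3, against 6.21 and 5.68 in wild type. As with COR15A, the wild-type array of number 1 was above that of number 2 in both genes.

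Seen in number 2 only were 331 probe sets (1.46%), 167 higher (0.734%) and 164 lower (0.721%). JRG21, named in the gene table as a jasmonate-regulated gene, stood at 3.58 and 6.75 in nbp35-3, against 3.33 and 3.97 in wild type. AT5G39580 stood at 5.72 and 8.16 in nbp35-3, against 5.45 and 4.74 in wild type. AT4G22470 stood at 3.13 and 6.35 in nbp35-3, against 3.26 and 3.56 in wild type. For these 3 genes the nbp35-3 array of number 2 was the highest of all 6, and the nar1-4 array of the same number stood above wild type too, at 5.67, 6.32 and 5.68.

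EXLA1 and EXPA8, both chosen for their size within number 2, lay on opposite sides of wild type there. EXLA1, an expansin-like protein, stood at 9.30 and 9.76 in nbp35-3, against 9.01 and 7.43 in wild type. The low value was that of the wild-type array of number 2. EXPA8, an expansin, stood at 5.32 and 6.62 in nbp35-3, against 4.87 and 8.77 in wild type, so that here the wild-type array of number 2 was the high one.

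AT2G29500 and AT1G31690 had the same form as EXPA8. AT2G29500 stood at 3.85 and 3.88 in nbp35-3, against 4.07 and 6.14 in wild type, with nar1-4 at 3.55 and 3.99. AT1G31690 stood at 4.35 and 4.49 in nbp35-3, against 4.66 and 6.47 in wild type. In AT2G29500 the wild-type array of number 2 stood apart from the other 5.

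**Figure D4:**
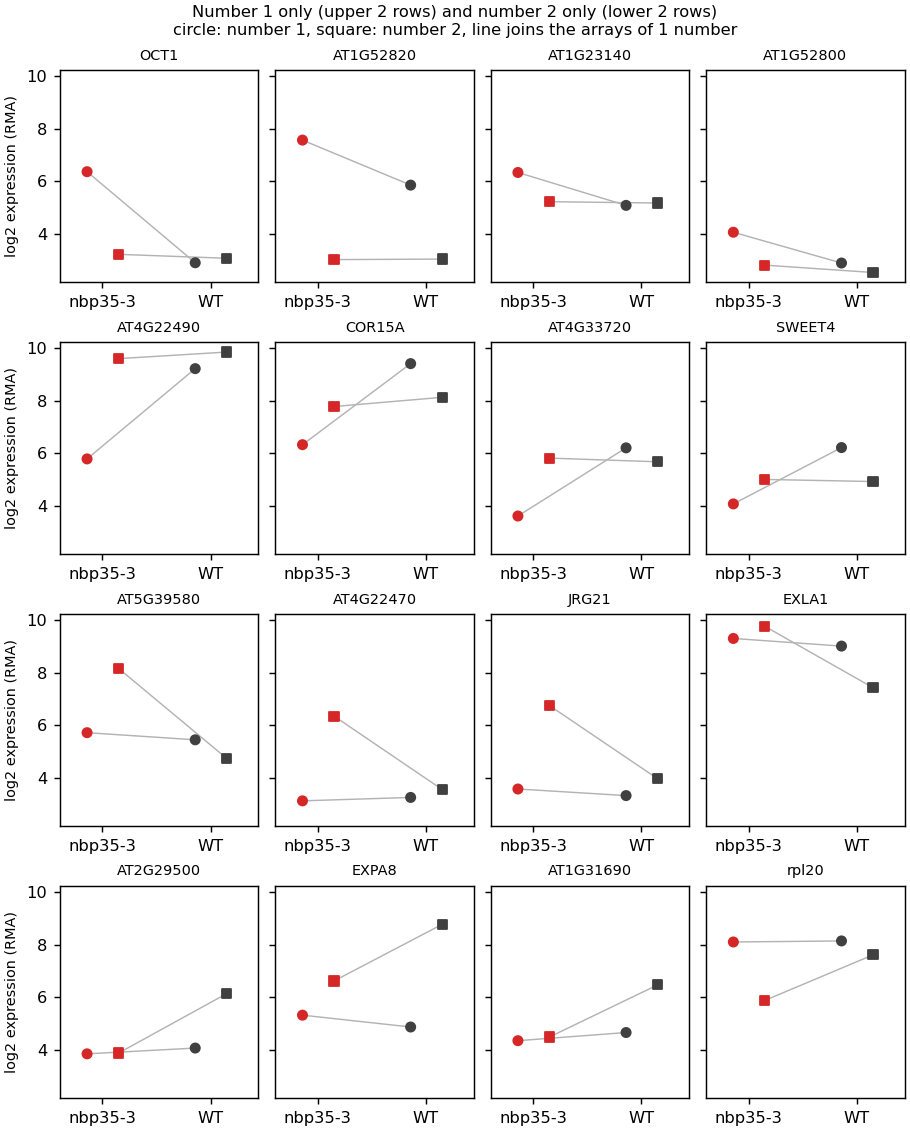
Level (log2, RMA) of the 16 named genes seen in 1 number, with nbp35-3 left (red) and WT right (dark), circles for number 1 and squares for number 2. In the upper 2 rows the line of circles slopes and that of squares is nearly flat, and in the lower 2 rows it is the reverse, sometimes through the nbp35-3 array (OCT1, AT4G22490) and sometimes through the WT array (AT2G29500).

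The nar1-4 array of the same number gave another reading beside each such difference. Among the 62 probe sets of number 1 only, the nar1-4 array lay nearer wild type in 43 (69.4%) and nearer nbp35-3 in 19. Among the 331 of number 2 only, it lay nearer wild type in 208 (62.8%) and nearer nbp35-3 in 123. Over all probe sets nar1-4 lay nearer wild type in 53.4% in number 1 and 55.5% in number 2.

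Among probe sets of number 2 only, the difference often had the sign of the difference between the numbers themselves. In nar1-4, whose arrays take no part in nbp35-3 minus wild type, 1601 probe sets (7.04%) were at least 2-fold apart between numbers 1 and 2. Of the 331 probe sets of number 2 only, 253 (76.4%) had the same sign as nar1-4 replicate 1 minus nar1-4 replicate 2, against 58.9% of all probe sets. At least 2-fold in nar1-4 were 139 of them in that direction and 21 in the other. The sizes followed less within a direction. Their correlation (Pearson) was 0.331 over all probe sets and 0.551 over those of number 2 only, a choice that leaves out small differences. Among the higher of number 2 only it was 0.181, and among the lower -0.048. For the 62 of number 1 only, the sign was shared by 38 (61.3%), against 54.2% of all, and those at least 2-fold in nar1-4 were 7 and 10. In these 253 the nbp35-3 array of number 2 lay off its wild-type partner on the side towards nar1-4 replicate 1. EXPA8 is an example, with nar1-4 at 5.37 and 7.85, while JRG21, AT4G22470 and rpl20 had the other sign. This comparison was chosen after the values were seen, and what the numbers share was not tested.

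**Figure D5:**
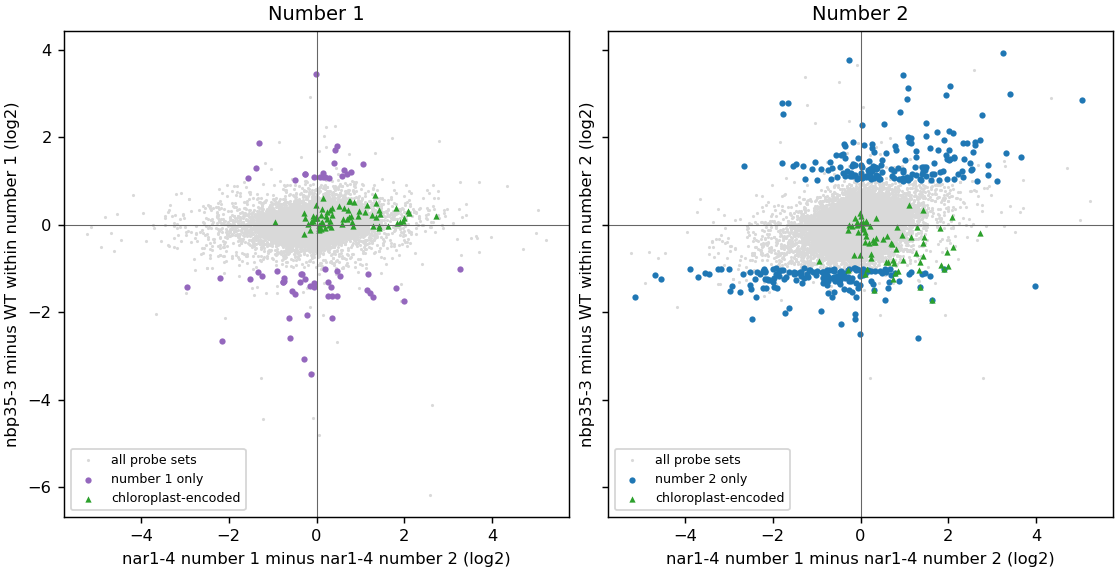
Difference of nbp35-3 minus WT (log2) within number 1 (left panel) and number 2 (right panel) against nar1-4 number 1 minus nar1-4 number 2 (log2), 1 point per probe set. Probe sets of number 2 only (blue) gather in the lower left and upper right, 253 of 331, while chloroplast-encoded ones (green) lie mostly right of 0 and, in number 2, below it.

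Opposite directions in the 2 numbers were found for 15 probe sets, 6 of which named 1 gene. For 11 of the 15 (0.0484% of all probe sets) nbp35-3 was lower in number 1 and higher in number 2, and for 4 (0.0176%) the reverse. AT3G02480 stood at 6.97 and 8.88 in nbp35-3, against 10.49 and 5.50 in wild type. Both wild-type arrays were outside the range of the nbp35-3 arrays, on different sides. AT2G37870 stood at 5.20 and 7.88 in nbp35-3, against 7.89 and 5.99 in wild type, and AT2G41190 at 6.13 and 7.50 in nbp35-3, against 7.26 and 5.89 in wild type.

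AT5G61520 (-1.07 and 1.34) had the same order of signs, and AT5G04960 the reverse, at 6.91 and 4.15 in nbp35-3, against 5.90 and 5.30 in wild type. AT1G53540 stood at 8.12 and 3.08 in nbp35-3, against 6.21 and 6.59 in wild type. The widest gap was in 247718_at, which names no gene here, at 4.52 and 7.92 in nbp35-3, against 10.70 and 4.38 in wild type. Averaged over the numbers the 6 named genes gave differences of -0.80 to 0.24, so a mean alone hides them. The difference of nar1-4 minus wild type was -5.27 and 0.97 in AT3G02480, -1.33 and 0.09 in AT2G37870 and -1.16 and -0.25 in AT2G41190. It was 0.31 and 0.47 in AT5G61520, -0.16 and 0.71 in AT5G04960, -0.58 and -3.76 in AT1G53540 and -2.89 and 0.85 in 247718_at. In some, as in number 1 of AT3G02480 and number 2 of AT1G53540, the wild-type array stood apart from both mutants.

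Genes around Fe-S clusters were near wild type where they were measured. In the cytosolic assembly list (2 of 9 measured), AT3G02280, whose synonym TAH18 names the reductase that feeds electrons to the pathway, stood at 6.78 and 6.44 in nbp35-3, against 6.63 and 6.42 in wild type. AT3G09380 differed by -0.20 and 0.00, at levels under the first quartile of all 6 arrays, where a change may not show. Of 28 genes of organellar assembly, 6 were measured and 0 passed. Among them were the scaffold ISU1 (-0.07 and 0.34), the chloroplast cysteine desulphurase CPNIFS (0.05 and 0.40) and the chloroplast carrier HCF101 (0.35 and -0.01). The median of the 6 was 0.09 within number 1 and 0.10 within number 2, against 0.01 for all probe sets in each number.

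The client proteins of the pathway also gave no repeated difference. ICU2, the catalytic subunit of DNA polymerase alpha, differed by 0.54 and -1.09 within numbers 1 and 2, a sign for each. The 3 probe sets of DME, which removes methylated cytosine, differed by 0.37, 0.18 and -0.15 within number 1 and -0.25, -0.13 and 0.13 within number 2. AT1G79950 (0.13 and -0.02) and the base excision glycosylase ATNTH1 (-0.01 and -0.10) lay close to 0. In all, 4 of 19 clients were measured by 6 probe sets, with 0 passed.

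For genome upkeep few genes were measured. The DNA ligase ATLIG4 (0.12 and 0.05) stood alone for 18 genes of the DNA damage response. The replication helicase subunit PRL (-0.25 and -0.68) and ICU2 stood for 17 of DNA replication. The mitotic kinases AUR1 (-0.25 and -0.57), AUR2 (-0.25 and -0.37) and AUR3 (0.03 and -0.03) stood for 16 of mitosis. MPC, an imprinted gene, differed by 0.11 and 0.47, and stood with QQS for 7 silenced or imprinted genes. In these lists 0 passed, and the lists for DNA methylation and nitrate response had 0 measured members.

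Stress lists are given beside the 50.6% of all probe sets that had the same sign in both numbers. Of 11 measured tau glutathione transferases, which conjugate glutathione to toxic compounds, 8 had opposite signs, with medians of 0.07 and -0.43. GSTU20 stood at 7.56 and 10.95 in nbp35-3, against 8.99 and 11.44 in wild type (-1.42 and -0.49), and GSTU22 differed by 0.01 and -0.96. Of 7 measured genes of mitochondrial and oxidative stress, 3 had opposite signs. AT2G41730 was lower in both numbers (-0.42 and -1.06), and AT2G04050, at 6.51 and 6.41 in nar1-4, stood at 3.15 and 3.79 in nbp35-3, against 2.98 and 3.51 in wild type. Of the heat shock list, which need not hold every heat shock gene on the array, 3 of 17 were measured. All 3 had opposite signs, AT5G48570 with 0.89 and -1.13 and ATHSP22.0 with 0.17 and -0.89. In these 3 lists 0 passed.

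Iron, sulphur and hormone lists gave values of the same kind, with 0 passed in each. For iron, PYE differed by 0.19 and 0.07, BHLH101 by 0.17 and -0.62 and AT3G13610 by 0.02 and -0.96 (3 of 20 measured). For sulphate assimilation and glucosinolates, BCAT4, an enzyme of methionine chain elongation, differed by -0.30 and -0.64, the ATP sulphurylase APS4 by -0.46 and -0.14 and BGLU28 by 0.05 and -1.15 (4 of 19). For jasmonate, the defensin PDF1.2 differed by 1.97 and -0.83 and THI2.1 by -0.99 and -0.23 (3 of 13). For salicylic acid and defence, AT2G43590, described above, was the member with the smallest p, and the chitinase gene CHI differed by -1.14 and -0.15 (5 of 16). For the clock, GI differed by -0.31 and -0.03 and COR27 by -0.35 and 0.55 (3 of 21).

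Organ markers showed which parts of the seedling the arrays held. The light-harvesting genes LHCB4.1 and LHCB4.2 stood at 12.46 to 12.98 in nbp35-3, against 12.30 to 12.98 in wild type. LHCB4.3, of the same list, stood at 9.42 and 6.29 in nbp35-3, against 9.17 and 6.61 in wild type. The root hair expansins EXPA7 (0.65 and -0.52) and EXPA18 (0.80 and -0.15) were higher in nbp35-3 in number 1 and lower in number 2. The seed gene M17 stood at 2.18 and 3.99 in nbp35-3, against 2.21 and 2.38 in wild type, and the flowering gene AGL24 differed by -0.17 and -0.44. Root, seed and flower lists had 3 of 10, 2 of 9 and 1 of 10 genes measured, and the photosynthesis list 4 of 26, with 0 passed.

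Chloroplast-encoded transcripts were looked at after their values were seen, and 1 of 69 probe sets had an unadjusted p under 0.05 (4.73% of all probe sets). The labelling reaction primes on poly(A) tails, which most chloroplast transcripts lack. Of the 69, 14 were lower in nbp35-3 within number 1 (median 0.16, range -0.22 to 0.68) and 57 within number 2 (median -0.39, range -1.73 to 0.44), where all probe sets had a median of 0.01 in each number. At least 2-fold were 0 in number 1 and 11 in number 2, against 0.536% and 1.92% of all probe sets. The ribosomal protein gene rpl20 stood at 8.10 and 5.88 in nbp35-3, against 8.14 and 7.61 in wild type, and ycf3 at 9.76 and 7.97 in nbp35-3, against 9.42 and 9.48 in wild type. In both genes the nbp35-3 array of number 2 was the lowest of the 6.

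Leaving out an nbp35-3 array decides whether anything is called. In limma with the block, 14 probe sets passed without nbp35-3 replicate 2 and 240 without nbp35-3 replicate 1. Each fit then rests on a single nbp35-3 array, which is assumed to vary like the other genotypes, with 1 residual degree of freedom. AT1G08310, described above for its smallest p, passed in both fits. Both take their spread from the same wild-type and nar1-4 arrays, so they are not separate checks. Leaving out a nar1-4 array gives the same fit as the 4 arrays of nbp35-3 and wild type, where 0 passed, as with all 6. The remaining nar1-4 array is then matched exactly by its own term, so these fits are not separate checks either. Leaving out a wild-type array rests the comparison on a single wild-type array.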

How the data were processed

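Expression was deposited on a log2 scale, for 22810 probe sets and 6 single-colour arrays. Per the submitters' processing notes the authors made these log2 values with RMA, which corrects background, sets the arrays to a common distribution and summarises probes, so that differences in total RNA are removed. The sources used here name no version of RMA. Per the labels' protocols, the RNA input to the biotin labelling was 250 ng, except for 3 samples with 200 ng, named by codes that are not tied to genotypes. The number of arrays limits the precision.

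Besides 64 Affymetrix controls, left out, 13513 of 22746 probe sets (59.4%) named 1 gene through the platform annotation, 503 named several and 8730 none. Symbols were updated through a RefSeq gene table of TAIR10.1, in which 13436 matched. That table gave only names and gene order.

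Differences were tested with limma 3.58.1 in R 4.3.3 (lmFit, eBayes, two-sided) over all 6 arrays with replicate number as a block, which leaves 2 residual degrees of freedom, and Benjamini-Hochberg adjustment over 22746 probe sets. Each SE printed is from that fit. What samples of a number share is not in the labels. Deviations from the genotype means correlated at 0.694 between wild-type and nbp35-3 arrays of the same number. The code of the fit was tried on simulated data with independent noise and changes alike in both numbers, a simpler setting than these arrays. That trial does not measure how the fit performs here.

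Genes named by rule were those at least 2-fold in both numbers in the same direction, 8 in each direction by smallest p, the 4 largest in each direction seen in 1 number only, up to 8 with opposite directions, and up to 3 per list by p. Others were singled out after their values were seen: the unnamed probe sets, those just outside 2-fold, neighbouring genes, further list members and chloroplast genes. The lists hold 440 loci in 26 lists, of which 96 had a probe set that names them alone. For 24 of those 96 the gene table does not carry the name under which they were written. The members and lists were chosen with earlier results of these data known.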

Additional observations from a re-analysis of the deposited data

How the results depend on the processing

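The count of called probe sets stayed at 0 with no replicate block, with the 4 arrays of nbp35-3 and wild type alone, with trended or robust priors, array weights, median centring, quantile normalization, both level filters, a threshold of 0.1 and probe sets naming 1 gene, where the smallest adjusted p was 0.182 to 1. Without single arrays it was 0 to 240. The counts of 9 repeated, 15 opposite, 62 number 1 only and 331 number 2 only fell to 5, 7, 28 and 184 among probe sets at or above the median level, since fewer were counted. At 1.5-fold 91 repeated and 129 were opposite, and at 3-fold 2 and 7. With a limit of 0.25 in the other number, 35 were seen in number 1 only and 206 in number 2 only, and with a limit of 1, 98 in number 1 only. Other scalings moved these 4 counts by less than 1.5 times. Of the 17 genes refitted (those repeated in both numbers or with the smallest p), 0 changed direction under 13 alternatives. That was largely fixed by the choice, since these genes had like signs in both numbers. The block, the priors and the nar1-4 arrays also leave the estimated difference itself unchanged. AT1G08310, AT4G15680, AT4G15660, AT4G17470 and AT2G40435 passed only in fits that rest on a single nbp35-3 array. Such fits hold no spread between nbp35-3 arrays. Differences within number 2 moved by more than the replicate spread in 4 cases: AUR3, at -0.03, took the other sign under median centring (0.04), quantile normalization (0.03) and removal of a trend on level, an alternative added after seeing the data (0.03), and AT4G14090 came to -0.16 under median centring. Signal over background could not be measured from these values.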
